A study of Mus musculus with 6 samples.

Results

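The unfolded protein response and the integrated stress response were examined through 32 genes, taken by symbol from the 54532 gene identifiers of the deposited mouse cortex tables. All 32 were present, and all 32 had enough reads to be tested. Where a symbol occurred more than once, the identifier with the most counts was used, which applied to Ddit3. The members fall into 3 stress sensors, 2 central transcription factors, 13 chaperones and folding enzymes of the endoplasmic reticulum, 6 genes of endoplasmic-reticulum-associated degradation and 8 targets of the transcription factor Atf4.

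The endoplasmic reticulum is where secreted and membrane proteins fold. When unfolded proteins build up there, the sensors Ern1 (IRE1), Eif2ak3 (PERK) and Atf6 are released from the chaperone Hspa5 (BiP) and start separate branches of the response. The Ern1 and Atf6 branches raise chaperones and degradation genes, whereas Eif2ak3 phosphorylates the initiation factor eIF2, which slows translation and favours synthesis of Atf4. Other eIF2 kinases answer to amino acid shortage, viral RNA or heme shortage and reach the same Atf4 targets without unfolded proteins, so chaperones and Atf4 targets can move apart. The splicing of Xbp1, the cleavage of Atf6 and the phosphorylation of eIF2 are not read by counts per gene.

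Cell-treated mice and control mice were compared, with 3 libraries in each group. All mice were 5XFAD, a transgenic Alzheimer's disease model whose transgenes are expressed mainly in neurons, from the Thy1 promoter. Cell-treated mice had received cell therapy, which the series title describes as interneurons made from human induced pluripotent stem cells, and controls carried the label NC. Age, sex and any sham injection of the controls are not given in the sources used here. The tables name the control columns for the disease, and they were taken as the controls because the remaining columns carry the word treated. The design text calls the untreated 5XFAD mice the experimental group. A further deposited table, not used for any value, heads the mean of those same columns with both words, so the sign of every difference rests on this inference.

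Total counts ran from 14880969 to 16696463 in cell-treated libraries and from 14221519 to 15607280 in control libraries. The 8 cortical excitatory neuron markers checked were detected in every library, with a summed level of 3446.5 to 4870 CPM (counts scaled to a common library size with TMM factors) in cell-treated and 3208 to 5463 CPM in control libraries. Cell-treated library 3 stood apart, with a mean Pearson correlation of 0.936 with the others across genes against 0.963 to 0.968 for the other 5. It held the lowest summed level of 6 astrocyte markers, 1215.5 CPM against 4216 to 7666 CPM elsewhere. Control library 3 had 1.95% mitochondrial counts, against 4.49% to 8.78% elsewhere. In bulk tissue, fewer cells of a type and less RNA per cell cannot be told apart.

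The chaperones and the Atf4 targets differ in the DNA upstream of them, which is shown here because it is the textbook basis of setting the groups against each other. RefSeq promoter windows (GRCm38.p6) were available for 28 of the 32 members. The 250 bases before each annotated start were searched on both strands. The endoplasmic reticulum stress response element, ERSE, was searched as CCAAT and CCACG with any 9 bases between them, and Atf6 and Xbp1 are known to bind elements of this kind. Among members with a window, it occurred in 7 of 11 chaperones, 1 of 5 degradation genes and 0 of 8 Atf4 targets. Of all 32851 windows, 0.113% held it. Here and below members are counted as genes, and the 28 had 30 windows, whereas the background is a share of windows. In the sites below, written 5′ to 3′ on the strand that reads CCAAT first, capitals mark the motif.
Hspa5 at chr2:34772015-34772053, plus strand: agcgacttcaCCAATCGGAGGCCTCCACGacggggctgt
Hsp90b1, distal site, at chr10:86705628-86705666, minus strand: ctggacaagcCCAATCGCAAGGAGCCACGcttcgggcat
Hsp90b1, proximal site, at chr10:86705523-86705561, plus strand: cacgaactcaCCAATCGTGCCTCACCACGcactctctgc
Calr at chr8:84847065-84847103, plus strand: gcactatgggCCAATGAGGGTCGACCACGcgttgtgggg
Canx at chr11:50325790-50325828, minus strand: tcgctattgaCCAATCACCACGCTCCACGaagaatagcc
Pdia6 at chr12:17266481-17266519, plus strand: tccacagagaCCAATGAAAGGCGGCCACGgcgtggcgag
Dnajc3 at chr14:118937817-118937855, plus strand: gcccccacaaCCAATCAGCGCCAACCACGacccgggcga
Creld2 at chr15:88819510-88819548, minus strand: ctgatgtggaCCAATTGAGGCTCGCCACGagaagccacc
Syvn1 at chr19:6046522-6046560, plus strand: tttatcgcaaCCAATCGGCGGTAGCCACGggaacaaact

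The Atf4 composite element, CARE, was written as TGATGNAA. It occurred in 2 of 8 Atf4 targets, 0 of 11 chaperones and 1 of 5 degradation genes with a window, against 3.45% of all windows. The shorter ERSE-II, searched as ATTGG and CCACG with any 1 base between them, was found in Herpud1 alone among the members and in 0.0304% of all windows. It shares the letters CCACG with ERSE, but its match overlapped no ERSE match. The cyclic AMP element TGACGTCA was found in 1 of the 28 members, Ppp1r15a, against 1.55% of all windows, and the element TGACGTGG in 0 of 28 against 0.563%. The CARE sites below are written on the strand that reads TGATG, with the motif in capitals.
Asns at chr6:7693215-7693242, minus strand: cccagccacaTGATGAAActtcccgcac
Chac1 at chr2:119351039-119351066, minus strand: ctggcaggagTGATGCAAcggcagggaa
Herpud1 at chr8:94386307-94386334, minus strand: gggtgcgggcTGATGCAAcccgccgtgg

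The upstream sequences of a chaperone, of Herpud1, which carries elements of both kinds, and of an Atf4 target are given on the strand of the gene, with the same motifs in capitals. These letters are a description of the windows, and the annotated RefSeq start can differ from the deposited gene start.
Hspa5 at chr2:34771840-34772089, plus strand: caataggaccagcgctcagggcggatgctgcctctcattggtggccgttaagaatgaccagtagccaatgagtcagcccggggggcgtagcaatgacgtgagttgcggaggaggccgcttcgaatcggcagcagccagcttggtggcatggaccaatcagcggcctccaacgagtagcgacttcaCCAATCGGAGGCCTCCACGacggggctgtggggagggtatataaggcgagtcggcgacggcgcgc
Herpud1 at chr8:94386179-94386428, plus strand: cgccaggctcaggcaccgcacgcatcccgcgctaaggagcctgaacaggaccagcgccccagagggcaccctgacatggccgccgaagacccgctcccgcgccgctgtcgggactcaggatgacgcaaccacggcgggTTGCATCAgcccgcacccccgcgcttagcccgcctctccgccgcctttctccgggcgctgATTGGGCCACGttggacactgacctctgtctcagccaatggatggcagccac
Chac1 at chr2:119350992-119351241, plus strand: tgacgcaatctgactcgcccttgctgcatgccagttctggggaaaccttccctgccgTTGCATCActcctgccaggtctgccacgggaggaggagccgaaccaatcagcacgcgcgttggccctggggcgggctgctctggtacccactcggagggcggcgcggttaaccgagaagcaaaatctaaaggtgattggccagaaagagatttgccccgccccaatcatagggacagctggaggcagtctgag

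**Figure D1:**
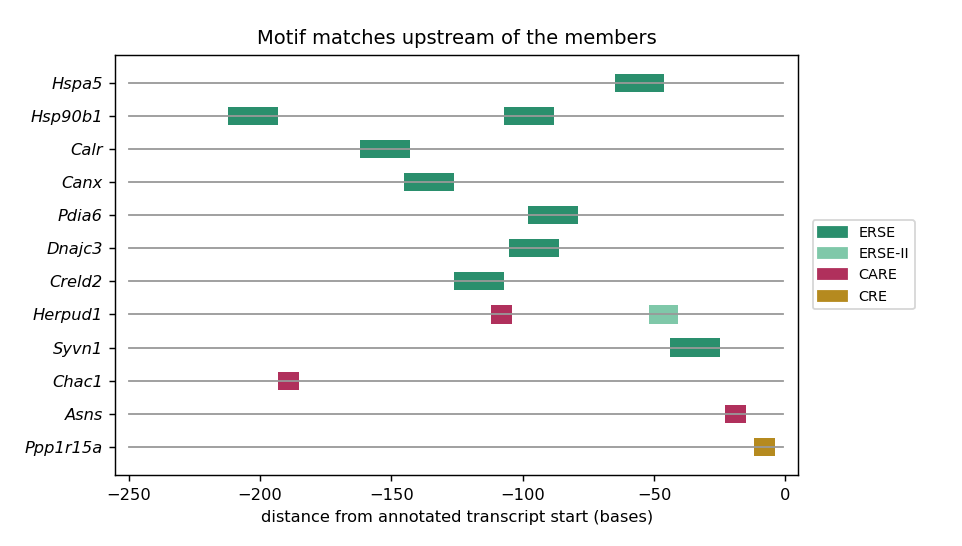
Positions of the ERSE, ERSE-II, CARE and CRE matches in the 250 bases before the annotated start of the 12 members that held at least 1. Each line is a member and each block a match upstream of it. The ERSE matches lie in chaperones and Syvn1, and CARE in Herpud1, Chac1 and Asns.

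None of the 32 members differed between cell-treated and control libraries by the test used. With edgeR's quasi-likelihood test over 17042 genes and Benjamini-Hochberg adjustment, 0 members were called at an adjusted p under 0.05, where 0% of all genes were called, and no member had an adjusted p below 0.999. At an unadjusted p under 0.05, 1 member was higher in cell-treated libraries, Dnajb9, or 3.12% of the 32, against 0.939% of all genes, and 0 were lower, against 1.06% of all genes. DESeq2 called 0 members and had 0 at an unadjusted p under 0.05, and limma voom called 0 and had 1. The groups did not overlap for 3 members, 1 higher and 2 lower in cell-treated libraries, or 9.38% of the 32 against 8.60% of all genes, of which 4.30% were higher and 4.30% lower. These shares are near the background.

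The fold changes of the members were small and most were measured closely. On the log2 scale they ran from -0.43 for Sdf2l1 to 0.47 for Sesn2, and all 32 were below 1.5-fold in either direction. So were 15410 of all 17042 genes tested and 8644 of the 8935 genes at a like level, defined next. The 95% interval of the fold change lay within 2-fold in both directions for 27 members, or 84.4%, against 59.3% of all genes and 84.6% of the 8935 genes at a like level, between the 10th and 90th percentile of the members' own levels. The other 5 were Trib3, Chac1, Asns, Sesn2 and Ppp1r15a, all of them Atf4 targets. For these the interval reached past 2-fold at this depth and spread.

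**Figure D2:**
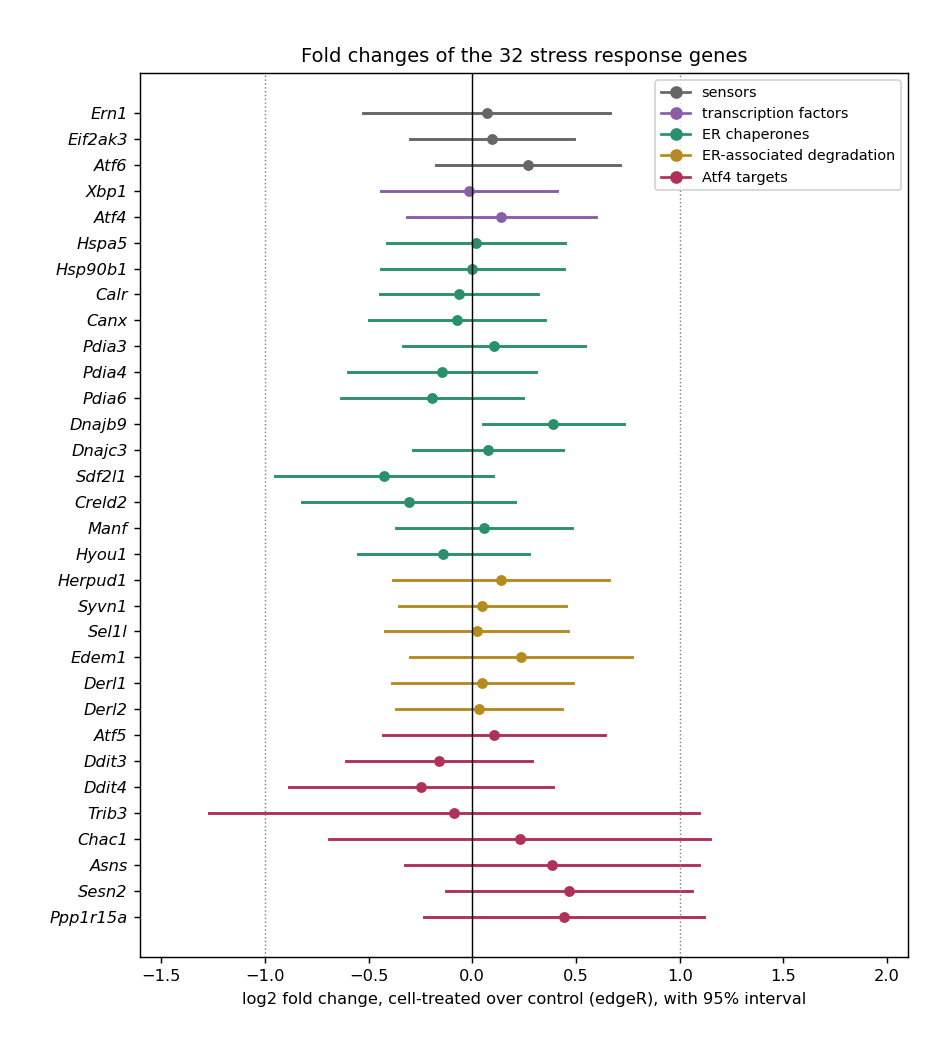
Log2 fold change of each of the 32 members in cell-treated over control libraries, with its 95% interval from edgeR (n = 3 libraries each), coloured by role. Dotted lines mark 2-fold; the interval of Dnajb9 alone leaves out 0, and those of 5 Atf4 targets cross 2-fold.

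The sensors were expressed at low levels per length. In FPKM, counts scaled by gene length and library total, Ern1 averaged 2.27 ± 0.471 in cell-treated libraries and 2.14 ± 0.528 in controls, Eif2ak3 5.45 ± 0.439 and 5.04 ± 0.570, and Atf6 7.93 ± 0.689 and 6.52 ± 1.35 (SD, n = 3 each). Atf6, a membrane-bound transcription factor released by cleavage, had 70.1, 80.7 and 68.5 CPM in cell-treated libraries 1, 2 and 3, against 75.2, 50.8 and 56.0 CPM in controls 1, 2 and 3. Control library 1 lay among the cell-treated values, so the groups overlapped, and the log2 fold change was 0.27 ± 0.192 (SE). Ern1, whose nuclease splices Xbp1 mRNA, had a log2 fold change of 0.070 ± 0.258 (SE). That of Eif2ak3 was 0.096 ± 0.171 (SE), with an interval of -0.30 to 0.49.

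The transcription factors differed by less than their standard errors. Atf4, translated preferentially when eIF2 is phosphorylated, had 105.5, 131.9 and 110.6 CPM in cell-treated libraries and 98.9, 87.6 and 129.2 CPM in control libraries. Cell-treated library 2 and control library 3 were the highest, and the log2 fold change was 0.14 ± 0.198 (SE). Since Atf4 is set largely in translation, its mRNA is a weak reading of its activity. Xbp1, the substrate of Ern1, had 67.6, 68.2 and 47.7 CPM in cell-treated libraries and 59.9, 61.1 and 64.6 CPM in control libraries. Cell-treated library 3 was the lowest of the 6, and the log2 fold change was -0.017 ± 0.184 (SE), or 0.13 without that library.

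The 5 most abundant members per length were chaperones, and most chaperones varied little between libraries, whereas Hyou1, Sdf2l1, Creld2 and Manf ranked 19 to 22 of the 32 in FPKM. Per length, Calr led with 94.3 ± 6.86 FPKM in cell-treated libraries and 97.6 ± 5.90 in controls, followed by Canx at 70.8 ± 6.81 and 73.7 ± 9.17 (SD, n = 3 each); both bind the sugar chains of folding glycoproteins. Next came Pdia3, a disulfide isomerase that works with them, at 64.5 ± 8.80 and 59.4 ± 8.75 FPKM, and Hsp90b1, the endoplasmic reticulum form of the Hsp90 chaperone, at 62.0 ± 7.90 and 61.4 ± 8.77 (SD, n = 3 each). These 2 neighbours in the order, Pdia3 and Hsp90b1, did not differ beyond their spread. Of the 13 chaperones, 6 were above and 7 below controls in their cell-treated values, none of them called, and the median log2 fold change was -0.064 against 0.0013 over all genes tested. The highest library exceeded the lowest by a median of 1.41-fold, from 1.15-fold for Calr to 1.76-fold for Sdf2l1, against 1.89-fold over all genes tested and 1.62-fold over genes at a like level.

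Hspa5, the central chaperone that also holds the sensors inactive and whose ERSE is printed above, had 229.3, 197.9 and 223.3 CPM in cell-treated libraries and 235.1, 174.8 and 231.9 CPM in control libraries. The groups overlapped throughout. Its log2 fold change was 0.019 ± 0.185 (SE), with an interval of -0.41 to 0.45. The other chaperones whose windows hold an ERSE had log2 fold changes of 0.0005 for Hsp90b1, -0.064 for Calr, -0.072 for Canx, -0.19 for Pdia6, 0.076 for Dnajc3 and -0.31 for Creld2. Pdia6, a disulfide isomerase, had 96.7, 82.95 and 69.2 CPM in cell-treated libraries and 85.3, 88.4 and 110.8 CPM in control libraries. Its lowest value was in cell-treated library 3 and its highest in control library 3.

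Dnajb9 stood out among the chaperones as the single member with an unadjusted p under 0.05. Dnajb9 (ENSMUSG00000014905, chromosome 12, 44205559 to 44210326) encodes ERdj4, a co-chaperone of Hspa5 that is induced through spliced Xbp1 and holds Ern1 in check. It had 51.7, 50.7 and 55.04 CPM in cell-treated libraries, against 41.8, 39.4 and 38.9 CPM in control libraries. Every cell-treated library lay above every control, with means of 52.5 ± 2.26 and 40.1 ± 1.56 CPM (SD, n = 3 each). The log2 fold change was 0.39 ± 0.147 (SE, 95% interval 0.049 to 0.73), with an unadjusted p of 0.0293 and an adjusted p of 0.999 by edgeR's quasi-likelihood test. Over 16 alternative settings it stayed between 0.33 and 0.42, and the unadjusted p between 0.0126 and 0.0859.

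Sdf2l1 and Creld2 also separated the groups, with lower values in cell-treated libraries. Sdf2l1 (ENSMUSG00000022769, chromosome 16, 17130138 to 17132383), a partner of Hspa5 complexes, had 9.16, 10.5 and 11.0 CPM in cell-treated libraries and 16.1, 11.3 and 13.9 CPM in control libraries. The gap was narrow, since control library 2 was just above cell-treated library 3. Its log2 fold change was -0.43 ± 0.228 (SE), with an unadjusted p of 0.0994 and an adjusted p of 0.999 by edgeR. Creld2 (ENSMUSG00000023272, chromosome 15, 88819646 to 88826683), a stress-inducible disulfide isomerase, had 13.5, 13.7 and 10.7 CPM in cell-treated libraries and 14.4, 13.95 and 18.5 CPM in control libraries. Here too the nearest values almost touched, and the log2 fold change was -0.31 ± 0.222 (SE), or -0.16 without control library 3.

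Dnajb9, Sdf2l1 and Creld2 are all known to be induced by unfolded proteins, and their values here did not share a direction. The groups also did not overlap in the summed level of other markers. The 5 erythrocyte genes, each detected in every library, summed to between 104.9 and 274.9 CPM in cell-treated and between 6.78 and 49.4 CPM in control libraries. The 6 striatal projection neuron genes, likewise all detected, summed to between 150.6 and 214.2 CPM in cell-treated and between 396 and 1073 CPM in control libraries. The part of either in the values of Dnajb9, Sdf2l1 and Creld2 was not tested.

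Of the 13 chaperones, 11 had their highest value in a control library, 6 of them in control library 3 and 5 in control library 1, whereas 44.8% of all genes tested had theirs in a control library. The exceptions were Pdia3 and Dnajb9, both highest in cell-treated library 3. The differences between libraries behind these ranks were small. The neurotrophic factor Manf had a log2 fold change of 0.056 ± 0.183, the Hsp70-family exchange factor Hyou1 -0.14 ± 0.178 and the disulfide isomerase Pdia4 -0.14 ± 0.196 (SE). Reads of Manf, Pdia3, Pdia6 and Hsp90b1 can be shared with genes on the opposite strand that overlap them, since counting by strand is not stated. Manf also overlaps Rbm15b, and Hsp90b1 overlaps Gm15344, on its own strand, which counting by strand would not separate.

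**Figure D3:**
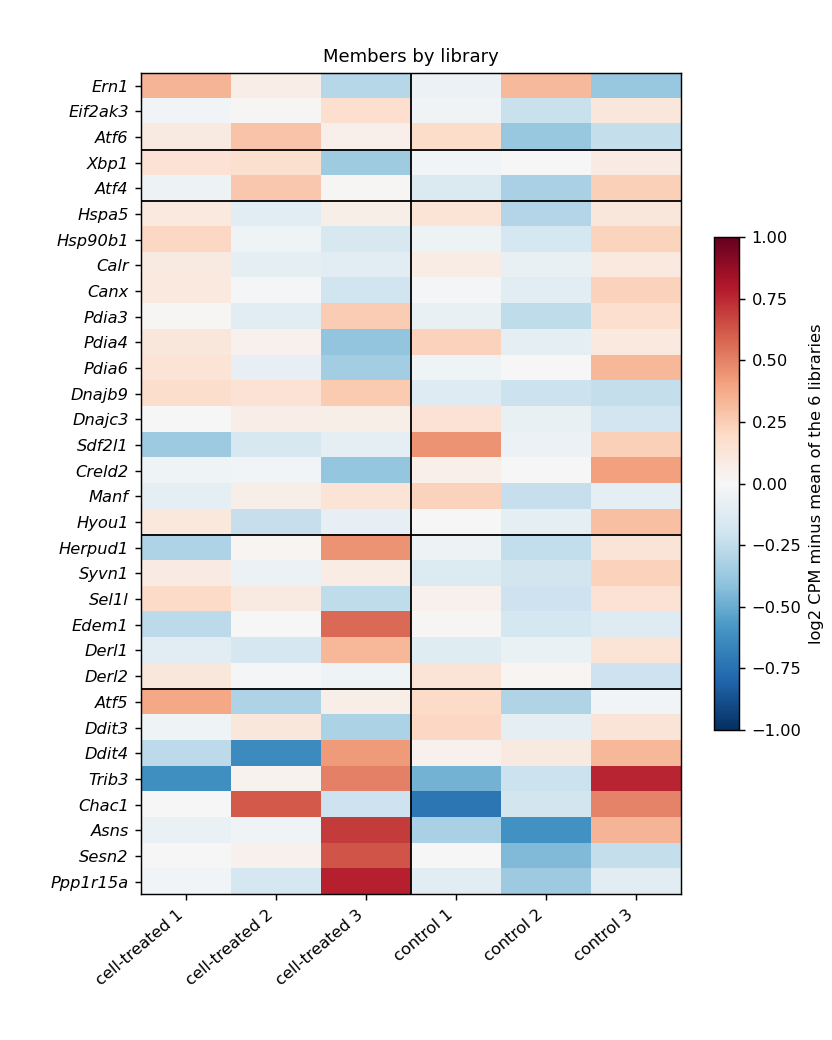
Deviation of log2 CPM from the mean of the 6 libraries for each of the 32 members, cell-treated libraries left and control libraries right, with lines between the roles. Chaperone rows are pale, and the deepest colours are those of Atf4 targets. These lie in cell-treated library 3 for Asns, Sesn2 and Ppp1r15a, and in other libraries, controls among them, for Trib3, Chac1 and Ddit4.

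The degradation genes, which move misfolded proteins out of the endoplasmic reticulum to the proteasome, showed no shared shift beyond their errors. All 6 had positive log2 fold changes, from 0.021 for Sel1l to 0.23 for Edem1, with a median of 0.049, and none was called. The values of the scaffold Sel1l and of its ubiquitin ligase Syvn1 (0.049 ± 0.174, SE) differed by less than their standard errors. Edem1, which marks misfolded glycoproteins for disposal, had 35.3, 42.2 and 62.6 CPM in cell-treated libraries and 42.7, 37.5 and 38.7 CPM in control libraries. Cell-treated library 3 alone lay above the controls, and without it the log2 fold change was -0.037. Herpud1, a stress-induced scaffold, averaged 48.9 ± 13.01 CPM in cell-treated libraries and 44.4 ± 5.87 CPM in controls (SD, n = 3 each), with 62.9 CPM in cell-treated library 3. The channel proteins Derl1 and Derl2 had log2 fold changes of 0.049 and 0.032, and that of Derl1 was -0.13 without cell-treated library 3.

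The Atf4 targets varied more between libraries than the chaperones did. Their highest library exceeded the lowest by a median of 2.15-fold, from 1.44-fold for Ddit3 to 2.59-fold for Trib3, against 1.89-fold over all genes tested. The 2 groups also differ in level. Trib3, Chac1, Sesn2 and Ppp1r15a ranked 32, 30, 28 and 27 of the 32 members in FPKM, whereas Asns, at 2.47-fold, ranked 7. The part of level in the spread was not tested. Trib3, a pseudokinase induced late in stress, had as few as 11 counts in a library, so counting error adds to its spread, whereas 30 of the 32 members had at least 100 counts in every library. Cell-treated values were above controls for 5 of the 8 targets and below them for 3, with a median log2 fold change of 0.17 against 0.0013 over all genes tested, and none was called. The median was 0.11 without cell-treated library 2, 0.087 without cell-treated library 3, 0.10 without control library 1, 0.075 without control library 2 and 0.42 without control library 3.

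Asns, which makes asparagine and carries a CARE printed above, was the most abundant target at 40.2 ± 13.2 FPKM in cell-treated libraries and 30.4 ± 10.7 FPKM in controls (SD, n = 3 each). It had 88.1, 90.2 and 149.9 CPM in cell-treated libraries and 73.7, 60.8 and 116.8 CPM in control libraries. Library 3 was the highest of each group and the groups overlapped. The log2 fold change was 0.39 ± 0.306 (SE), at an unadjusted p of 0.244 by edgeR. It was 0.088 without cell-treated library 3, 0.70 without control library 3 and 0.41 without either, at an unadjusted p of 0.0231 by edgeR with 4 libraries. In that last fit 1531 of 17264 genes and 3 of the 32 members had an unadjusted p under 0.05, and none was called.

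Sesn2 and Ppp1r15a had the largest positive fold changes and were led by cell-treated library 3. Sesn2, an inhibitor of mTORC1 signalling, had 12.7, 13.1 and 19.7 CPM in cell-treated libraries and 12.8, 9.40 and 10.8 CPM in control libraries. Its log2 fold change was 0.47 ± 0.257 (SE), or 0.23 without cell-treated library 3. Ppp1r15a (GADD34), which recruits the phosphatase that reverses eIF2 phosphorylation, had 12.9, 11.7 and 22.6 CPM in cell-treated libraries and 12.2, 10.2 and 12.3 CPM in control libraries. The log2 fold change of 0.44 ± 0.292 (SE) became 0.086 without cell-treated library 3.

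Ddit4 (REDD1), an mTORC1 inhibitor that glucocorticoids and hypoxia also induce, had a negative log2 fold change. It had 31.99, 24.7 and 51.6 CPM in cell-treated libraries and 39.4, 40.9 and 48.4 CPM in control libraries. Cell-treated libraries 1 and 2 lay below every control, and cell-treated library 3 lay above every control. The log2 fold change was -0.25 ± 0.275 (SE), at an unadjusted p of 0.393 by edgeR. Without cell-treated library 3 it was -0.60 with an unadjusted p of 0.0132 by edgeR. In that fit 796 of 17524 genes and 2 of the 32 members had an unadjusted p under 0.05, and none was called. The 6 glucocorticoid response genes, all detected in every library, summed to 677 CPM in cell-treated library 3. Their sums were 220.0 and 243.1 CPM in cell-treated libraries 1 and 2 and 275.1 to 365.4 CPM in controls. Each was highest in cell-treated library 3, but 2 of them only narrowly. Tsc22d3 had 57.90 CPM there against 57.85 CPM in control library 3, and Per1 109.0 against 101.9 CPM. The part of this response in the Ddit4 values was not tested.

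**Figure D4:**
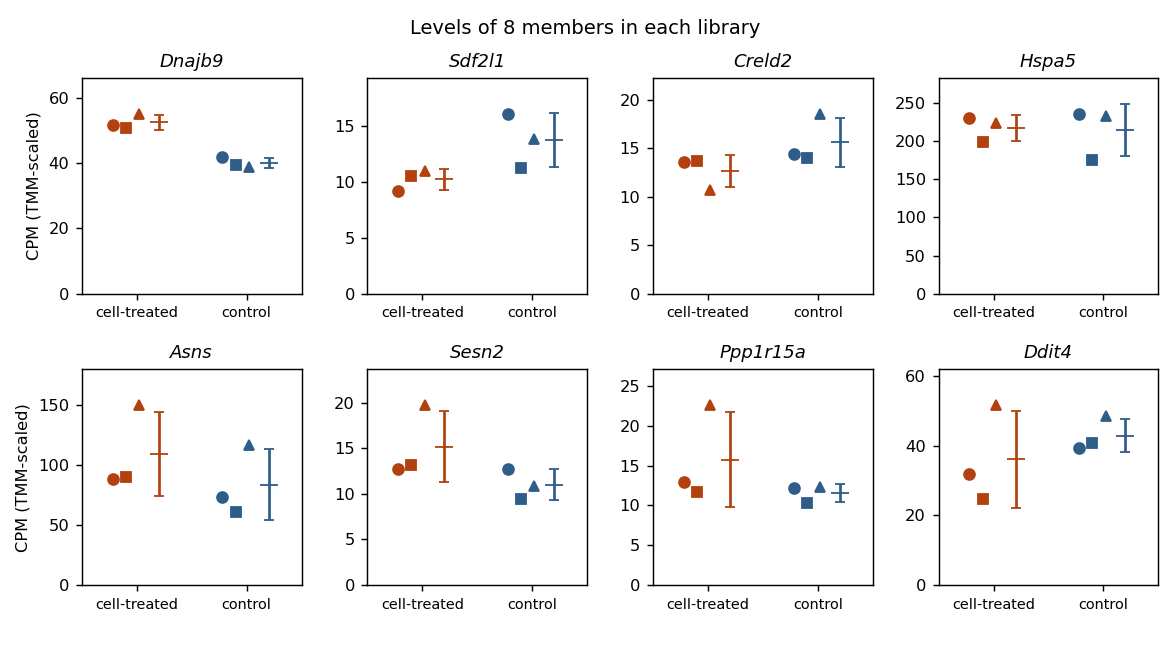
TMM-scaled CPM of 8 members in each library, with circles, squares and triangles for libraries 1, 2 and 3 and bars for the mean ± SD of each group (n = 3). Dnajb9 separates the groups, Hspa5 does not, and Asns, Sesn2, Ppp1r15a and Ddit4 are highest in cell-treated library 3, as triangles.

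The remaining targets showed no common direction. Ddit3 (CHOP), the transcription factor tied to death after prolonged stress, had 22.0, 24.5 and 18.2 CPM in cell-treated libraries and 26.1, 21.3 and 24.8 CPM in control libraries. The groups overlapped, with a log2 fold change of -0.16 ± 0.194 (SE, 95% interval -0.61 to 0.29). Ddit3 lies over Mars and Gm4189 on the opposite strand, and their reads cannot be told apart where strand was not used. The same holds for Atf5 with Nup62 and Il4i1 and for Ppp1r15a with Tulp2, whereas Sesn2 overlaps Gm12981 on its own strand. Atf5, a relative of Atf4, had a log2 fold change of 0.10 ± 0.232, Chac1, a glutathione-degrading enzyme, 0.23 ± 0.398, and Trib3 -0.089 ± 0.511 (SE). Trib3 was the least abundant member per length, at 0.514 ± 0.193 FPKM in cell-treated libraries and 0.539 ± 0.260 FPKM in controls (SD, n = 3 each).

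Chaperones and Atf4 targets were then set against each other within each library. For a score, each gene's log2 CPM was centred on its 6-library mean and then averaged over the genes of a group. Chaperone scores were 0.042, -0.042 and -0.076 in cell-treated libraries 1, 2 and 3 and 0.076, -0.13 and 0.13 in controls 1, 2 and 3. Atf4 target scores were -0.070, -0.045 and 0.31 in cell-treated libraries and -0.14, -0.26 and 0.20 in control libraries. The chaperone minus Atf4 target score was 0.11, 0.0036 and -0.39 in cell-treated libraries and 0.22, 0.13 and -0.073 in control libraries. Cell-treated library 3 gave the lowest value and control library 3 the next, so that within each group library 3 had the most Atf4 target expression relative to chaperones.

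The group means of this contrast were -0.091 ± 0.263 in cell-treated libraries and 0.091 ± 0.148 in controls (SD, n = 3 each). The difference of -0.18 was smaller than the pooled spread of 0.214 between libraries of a group, and it was -0.034 without cell-treated library 3. It was -0.28 without cell-treated library 1, -0.26 without control library 3 and -0.12 without control library 1 or, in the fit without both libraries numbered 3, -0.12. Over all 16 alternative settings it ran from -0.28 to -0.034. These settings reuse the same 6 libraries, so the unchanged sign is no independent support for a difference.

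**Figure D5:**
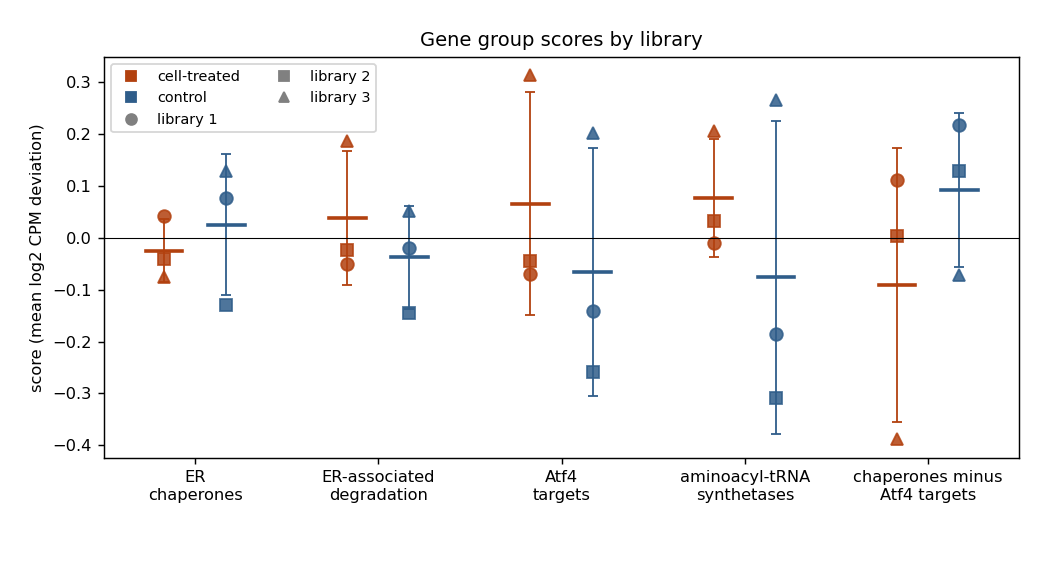
Scores of 4 gene groups and of the chaperone minus Atf4 target contrast in each library, in log2 units, with circles, squares and triangles for libraries 1, 2 and 3 and bars for the mean ± SD (n = 3 each). Chaperone scores stay between -0.13 and 0.13, with the highest in control library 3. Atf4 target and synthetase scores are highest in the libraries numbered 3, at 0.20 or more. Degradation scores are also highest in these libraries, at 0.19 in cell-treated and 0.051 in control, and lowest in control library 2, at -0.14.

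A group of 11 cytosolic aminoacyl-tRNA synthetases also had its highest scores in the libraries numbered 3. These enzymes charge transfer RNAs and are known Atf4 targets outside the 32 members. The group is not the whole class. Mars, for example, is not in it, and the symbol Mars1, under which it was listed, had no entry. They belong to a wider list of Atf4 targets and were taken as a group of 11 after their values were seen, so they are no independent evidence of this pattern. Their scores were -0.0097, 0.033 and 0.21 in cell-treated libraries and -0.19, -0.31 and 0.27 in control libraries. The highest value was in cell-treated library 3 or control library 3 for 9 of the 11, against 47.6% of all genes tested. Control library 2 was the lowest for 7, against 15.2% of all genes tested. Among the 32 members these shares were 56.2% and 34.4%. The libraries numbered 3 held the highest value for 61.5% of the chaperones, 66.7% of the degradation genes and 62.5% of the Atf4 targets. Control library 2 was the lowest for 30.8%, 16.7% and 37.5% of them, so neither trait was particular to the synthetases. The wider list of 35 tested targets, which holds these 11, did not show cell-treated library 3 as its highest, with scores of -0.067, 0.037 and 0.0024 in cell-treated libraries and 0.0052, -0.085 and 0.11 in control libraries.

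The library differences moved with other marked differences, whose part in them was not tested. In cell-treated library 3 the 6 interferon response genes, all detected in every library, summed to 174.8 CPM, against 58.5 and 69.4 CPM in the other cell-treated libraries and 66.8 to 78.0 CPM in controls. Its summed astrocyte marker level was the low one given above, although Aldh1l1 alone had 112.1 CPM there, within the 70.8 to 159.8 CPM of the other libraries. Phgdh, a serine synthesis enzyme and Atf4 target that is abundant in astrocytes, had 34.4 CPM there against 65.9 to 86.3 CPM elsewhere. The low mitochondrial share of control library 3 is likewise given above. In cell-treated library 3 the 8 reactive astrocyte and wound markers summed to 3114.7 CPM. Their sums were 1254 and 2197 CPM in the other cell-treated libraries and 1562.5 to 4201 CPM in controls. Each of them except Gfap was highest in cell-treated library 3, with Vim at 1014.7 CPM against 89.1 to 289.55 CPM elsewhere. The 5 olfactory bulb genes summed to 286.7 CPM in cell-treated library 1, against 5.73 to 31.2 CPM elsewhere. Of 5 plasma cell genes, a type rich in chaperones, the summed level was 2.84 to 36.8 CPM in cell-treated and 3.77 to 5.61 CPM in control libraries, and 34.6 CPM of the highest sum came from Sdc1.

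Beyond the 32 members, 125 further genes of these pathways were listed, of which 121 were tested. By edgeR 0 were called, and DESeq2 called 0. At an unadjusted p under 0.05 by edgeR, 0 were higher and 1 was lower in cell-treated libraries, against 0.939% and 1.06% of all genes. Cell-treated values were above controls for 72 of the 121 and below them for 49, with a median log2 fold change of 0.046. The groups did not overlap for 3 higher and 7 lower genes of the 121, where 4.30% of all genes were higher and 4.30% lower without overlap. The gene with the smallest p was Rnf5, a membrane ubiquitin ligase of degradation, with 13.9, 28.1 and 21.6 CPM in cell-treated and 34.7, 29.1 and 33.7 CPM in control libraries. Its log2 fold change was -0.62 ± 0.265 (SE), at an unadjusted p of 0.0492 and an adjusted p of 0.999 by edgeR.

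Fkbp2, a prolyl isomerase of the endoplasmic reticulum, averaged 45.7 ± 9.43 CPM in cell-treated libraries and 72.3 ± 27.4 CPM in controls (SD, n = 3 each), with its highest value, 103.7 CPM, in control library 3. Among 13 eIF2 kinase and eIF2 machinery genes, 11 had higher values and none was called. Their median log2 fold change was 0.23. Of all 17042 genes tested, 8547 had higher values, with a median of 0.0013. Cell-treated library 3 was the highest for each of the 13 except Eif2ak1, Eif2b4 and Impact, against 28.7% of all genes tested. Eif2s2, for example, had 56.2, 66.7 and 115.9 CPM in cell-treated libraries and 57.2, 54.3 and 56.5 CPM in control libraries. Eif2s3x, the gamma subunit of eIF2, had 89.9, 85.6 and 125.8 CPM in cell-treated libraries and 80.3, 70.4 and 72.6 CPM in control libraries. Its groups did not overlap, at a log2 fold change of 0.43 ± 0.192 (SE) that passed no adjusted test. The 39 folding genes outside the members had a median of 0.018, 20 degradation genes 0.10, 14 regulators 0.00067 and 35 further Atf4 targets 0.017. Gdf15 and Fgf21, secreted signals of this response, had too few reads to be tested. The remaining untested genes, listed as Mars1 and March6, had no entry under those symbols, so their levels were not read.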

How the data were processed

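Poly(A)-selected RNA of mouse cortex was sequenced in 6 libraries, per the labels' protocols. The deposited counts are whole numbers of reads per gene, made with featureCounts after HISAT2 2.0.5 alignment as far as the tool names in the submitters' processing notes go, which also list DESeq2. No genome build is named, and gene coordinates are as deposited. The deposited FPKM values equal the authors' counts divided by gene length and a library total, which was 0.953 to 1.03 times the sum of counts.

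The test was that of edgeR 4.0.16 (R 4.3.3): filterByExpr (minimum count 10, minimum total 15), TMM factors, the robust quasi-likelihood F test and Benjamini-Hochberg adjustment over 17042 genes with a threshold of 0.05. Standard errors and 95% intervals come from the F statistic. Scores use log2 CPM with a prior count of 2. Each edgeR p-value sets the difference between groups against the spread among the 3 libraries per group, with dispersions moderated across genes. The edgeR test was run on simulated counts with known changes, and the outcome is not reported here.

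The members and lists, and the alternatives (DESeq2 1.42.0, limma 3.58.1, other scalings and filters, FPKM with pseudocounts of 1 and 0.1, a replicate block and left-out libraries), were chosen with earlier results of these data known. Values per library are given for Atf4, Xbp1, Hspa5 and Ddit3, for members whose groups do not overlap and for the 10 members of smallest p. Of the other pathway genes, those under an unadjusted p of 0.05 or the 3 of smallest p are named, and others are named after their values were seen. Promoter motifs were searched in RefSeq windows, and figures were drawn with matplotlib 3.10.9.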

Additional observations from a re-analysis of the deposited data

How the results depend on the processing

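Under the 16 alternatives, none of the 32 members was called, and 12 members kept the sign of their log2 fold change throughout while 20 changed it at least once, in 52 of 512 values. Over all genes, DESeq2 called 9 genes (5 higher and 4 lower in cell-treated libraries) and the fit with no filter on low counts called 1. The members whose groups do not overlap numbered 3, 4 to 7 with 1 library left out, where 13.9% to 22.2% of all genes did not overlap, and 13 without both libraries numbered 3, where 43.1% of all genes did not overlap. The median of the Atf4 targets ran from 0.0749 without control library 2 to 0.4173 without control library 3, and that of the chaperones from -0.1308 to 0.005989. Signs changed in limma voom with sample quality weights to 0.1357 for Xbp1, 0.07024 for Canx, 0.02924 for Pdia6, -0.01983 for Dnajc3, -0.08641 for Manf, -0.05916 for Herpud1, -0.07682 for Edem1, -0.03045 for Derl1 and -0.005328 for Derl2. With no filter on low counts the value was -0.00626 for Hsp90b1. Leaving out both libraries numbered 3, an alternative listed with the others, gave 0.1665 for Xbp1, 0.003229 for Calr, 0.1091 for Canx, 0.005989 for Pdia4, 0.0483 for Pdia6, -0.005603 for Dnajc3, -0.03436 for Manf, -0.05215 for Edem1, -0.04629 for Derl1, -0.027 for Derl2 and 0.07872 for Trib3. With 1 library left out, values ran from -0.09238 to 0.2691 for Ern1, from -0.1046 to 0.1323 for Xbp1, from -0.1082 to 0.09147 for Hspa5, from -0.1107 to 0.1211 for Hsp90b1, from -0.1455 to 0.03298 for Canx, from -0.003898 to 0.2248 for Pdia3, from -0.03859 to 0.1967 for Manf, from -0.0869 to 0.3005 for Herpud1, from -0.03071 to 0.1925 for Syvn1, from -0.07416 to 0.139 for Sel1l, from -0.03694 to 0.4 for Edem1, from -0.1281 to 0.1426 for Derl1, from -0.05685 to 0.1119 for Derl2, from -0.08323 to 0.26 for Atf5, from -0.3912 to 0.3792 for Trib3 and from -0.04628 to 0.6094 for Chac1. The causes of these changes were not tested.

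Same-numbered libraries correlated in their deviations from the group means at -0.277, 0.0815 and 0.0728, so the numbers were not taken to pair them. With the replicate block 0 members and 0 genes were called, and 319 genes had an unadjusted p under 0.05 against 340 without the block. Counting error is largest for Trib3 and Chac1, the members with under 100 counts in at least 1 library.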
